A study of Mus musculus with 12 samples.

Results

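The genes described here are 9 genes of the retinoic acid pathway, chosen by symbol: the enzymes *Aldh1a1*, *Aldh1a2* and *Aldh1a3*, the retinol receptor *Stra6*, the carriers *Crabp1* and *Crabp2*, and the nuclear receptors *Rara*, *Rarb* and *Rarg*. All 9 were found among the 51825 genes of the table of CPM values (counts scaled to the mapped reads of a library), among the 16152 genes of the count table, and among the 15994 genes that passed the filter on low counts and were tested. RNA of whole lungs of untreated C57BL/6 mice was sequenced at 2 embryonic time-points, E15.5 and E18.5, and at 2 postnatal time-points, P5 and P8, with 3 libraries at each. The 3 lungs of a time-point came from 1 litter, so differences between litters and between time-points cannot be told apart. Each p-value below for the change of a gene measures the spread between littermates. The permutation tests of shares also pool the time-points of a side. The libraries are of bulk tissue, in which fewer cells of a type and less RNA per cell cannot be told apart.

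Retinoic acid is the active form of vitamin A. Retinol carried in the blood enters cells, partly through the membrane receptor STRA6, and is oxidised to retinaldehyde, which the retinaldehyde dehydrogenases ALDH1A1, ALDH1A2 and ALDH1A3 convert to retinoic acid. The cellular retinoic acid binding proteins CRABP1 and CRABP2 carry the product in the cytoplasm, CRABP2 towards the nucleus. There the receptors RARα, RARβ and RARγ, each paired with a retinoid X receptor (RXR), switch target genes on when retinoic acid is bound. The pathway is known for its roles in the budding of the embryonic lung and in the formation of alveoli after birth.

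The pair of a RAR and an RXR recognises direct repeats of a short motif. The best known of these response elements has 5 bases between its 2 motifs and lies in the promoter from which *Rarb* itself is transcribed. Of the 9 genes, 7 have promoter windows in RefSeq (build GRCm38.p6, 300 bases around each start site), with 15 windows in all, and these were searched on both strands for 2 copies of NGNTCA, in which N is any base, in the same direction. The repeat with 5 bases between its copies was present in 283 of all 32851 mouse windows (0.861%), and among the 9 genes it was found in *Rarb* alone. The repeat with 2 bases between was present in 366 windows (1.11%) and in none of the 15. The repeats of *Rarb* and of *Cyp26a1*, which encodes an enzyme that breaks retinoic acid down, are printed with 5 bases on either side because they show what such an element looks like. Capitals mark the 2 motifs, and both are read 5′ to 3′ on the strand of the match.
*Rarb*, chr14:16575513-16575529, minus strand, the strand of the gene, from −53 to −37 of the start site: ggaagGGTTCAccgaaAGTTCActcgc
*Cyp26a1*, chr19:37697776-37697792, minus strand, opposite to the gene, from −32 to −16 of the start site: aaattAGTTCAcccaaAGTTCAtcttt
A match of letters is a description and does not show that a receptor is bound there in the lung. *Rarb*, *Aldh1a2* and the other genes with windows are returned to below with their levels.

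The libraries held between 41337443 and 53901957 counts on the genes of the count table. Marker genes of other tissues were not spread evenly over them. The summed level of 7 thymus genes was 139, 275 and 10.8 CPM in P8 replicates 1, 2 and 3 and 19.3 CPM in E15.5 replicate 2, and at most 6.84 CPM in the other 8 libraries. The summed level of 5 heart muscle genes was 612 and 676 CPM in E15.5 replicates 1 and 2, and 17.4 CPM in replicate 3. That of 5 skeletal muscle genes was 391, 105 and 5.41 CPM in P8 replicates 1, 2 and 3, and 113 CPM in P5 replicate 3. That of 4 cartilage genes was 64.4, 107 and 4.93 CPM in the P8 libraries and at most 15.3 CPM at P5. P8 replicates 1 and 2 were thus high in genes of several tissues. Each comparison was therefore also computed without the libraries high in thymus genes (E15.5 replicate 2, P8 replicates 1 and 2). It was computed too without those high in heart genes (E15.5 replicates 1 and 2). These values are given where a call of the 9 genes changed. The former left P8 replicate 3 as the only P8 library, and the latter E15.5 replicate 3 as the only E15.5 library. The spread at that time-point was then taken from the other groups, so an FDR of such a comparison does not measure it.

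Between E15.5 and E18.5 none of the 9 genes was past both cutoffs, an absolute log2 fold change above 1 and an edgeR FDR (Benjamini-Hochberg over all genes tested) under 0.05, where 3.04% of all genes were. DESeq2 and limma also called 0 of the 9, and 5 of the 9 had an unadjusted edgeR p under 0.05. By the FDR alone 5 of the 9 passed, *Aldh1a2*, *Stra6* and *Crabp1* lower and *Rara* and *Rarg* higher at E18.5, beside 21.5% of all genes. Each of these 5 missed the FDR threshold in at least 1 of 23 alternative fits, some of which leave 1 library at a time-point. Across birth, from E18.5 to P5, 4 of the 9 were past both cutoffs, *Aldh1a1* and *Aldh1a3* higher and *Rarb* and *Crabp2* lower, and 26.8% of all genes were, 17.5% higher and 9.34% lower. By the FDR alone 8 of the 9 passed in this interval, and 71.1% of all genes did. Between P5 and P8, *Aldh1a1* and *Aldh1a2* rose past both cutoffs, 2 of 9, beside 2.96% of all genes (2.88% higher). By the FDR alone 4 of the 9 passed here, and 18% of all genes did. The median log2 fold change of the 9 was -0.53, -0.39 and 0.84 in the 3 intervals in turn, where that of all genes lay at -0.01, -0.00 and -0.00. The 3 intervals share libraries, so their results are not independent of each other. They also differ in length, and that across birth is the longest. Changes were not divided by time, so a difference between the changes of 2 intervals is not a difference in rate.

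**Figure D1:**
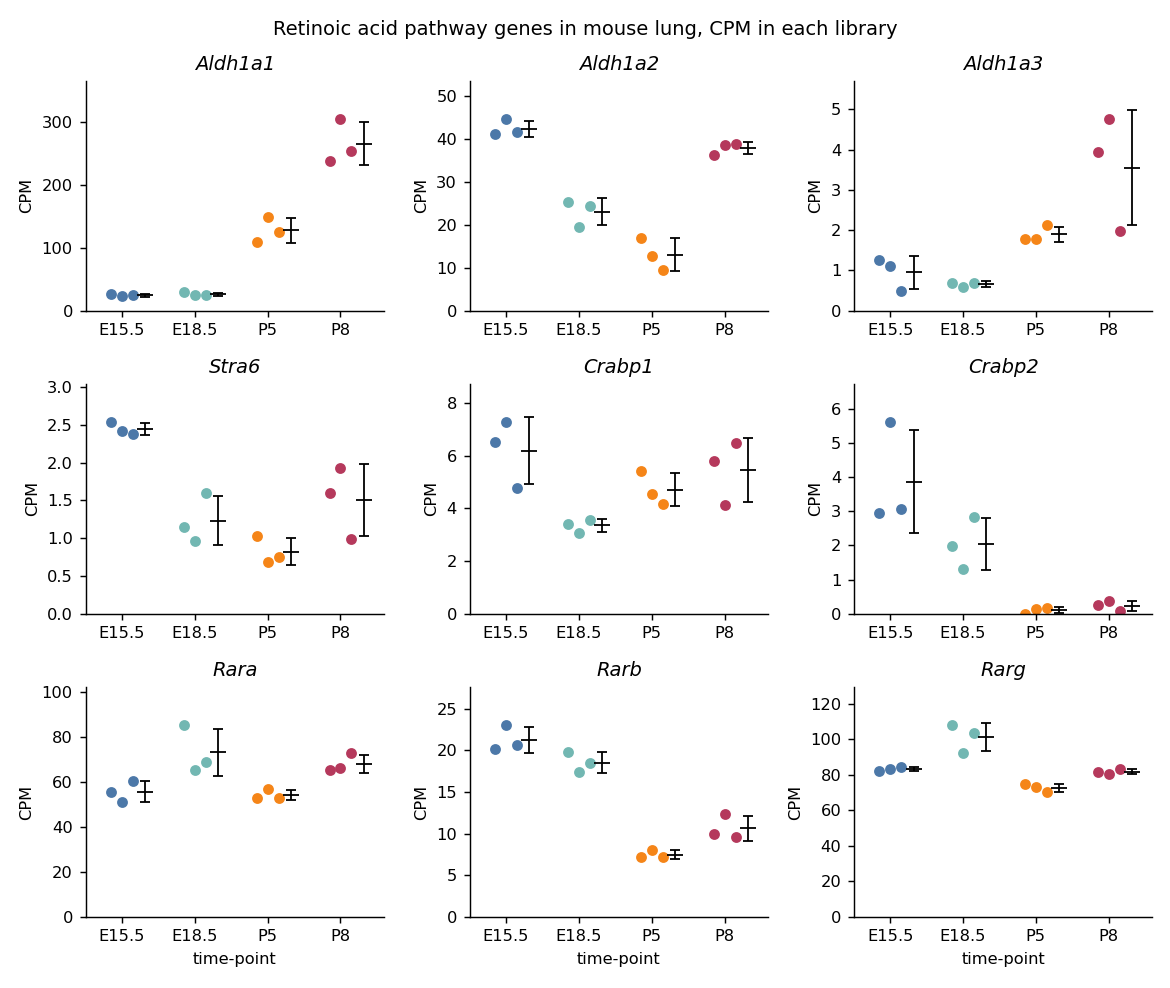
CPM of the 9 genes in each of the 12 libraries (points, on axes that start at 0) by time-point, with the mean and SD of the 3 libraries to the right of each group of points. The *Aldh1a1* points step up at P5 and again at P8, the *Aldh1a2* points fall until P5 and return at P8, and the *Crabp2* points lie at or under 0.359 CPM in all 6 postnatal libraries.

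*Aldh1a1* (ENSMUSG00000053279, chr19:20492715-20643465, plus strand, GRCm38), the retinaldehyde dehydrogenase that is widespread in adult epithelia, was at 27.0, 22.6 and 24.3 CPM in the E15.5 libraries and at 29.1, 24.9 and 25.2 CPM in the E18.5 libraries. It was at 110, 149 and 125 CPM at P5 and at 239, 304 and 253 CPM at P8. The embryonic groups overlapped, every P5 library lay above every embryonic one, and every P8 library lay above every P5 one. From E18.5 to P5 its log2 fold change was 2.36 (standard error 0.12, edgeR FDR = 5.97e-09), and from P5 to P8 it was 1.04 (standard error 0.11, edgeR FDR = 0.000362). The second of these lay at the fold cutoff and came to 0.95 without P5 replicate 1, 0.997 without P5 replicate 3, 0.94 without P8 replicate 2 and 0.96 without the libraries high in thymus genes, each time with the FDR still under 0.05. From E15.5 to E18.5 the change was 0.11 (edgeR FDR = 0.533). The rise across birth exceeded the change before birth by 2.25 on the log2 scale (standard error 0.20, edgeR FDR = 6.55e-06 for the difference, a test that 48.7% of all genes passed).

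Markers of epithelial cells moved with *Aldh1a1* across birth, and so did those of other cell types. In that interval 5 of 5 endothelium markers and 4 of 5 erythroid markers were called higher, and 1 erythroid marker lower. From P5 to P8, 6 of 6 mesothelium markers were called higher, and 0 of the 5 in each of the other 2 lists. The summed level of 6 airway markers lay between 44.7 and 141 CPM in the embryonic libraries, between 3942 and 4834 CPM at P5 and between 6478 and 7403 CPM at P8. Of these 6, 3 were called higher across birth and 3 from P5 to P8, the latter being *Cyp2f2* and the basal cell genes *Krt5* and *Trp63*. In P8 replicates 1, 2 and 3 *Krt5* was at 22.6, 18.4 and 0.444 CPM and *Trp63* at 5.13, 4.38 and 0.444 CPM. Outside P8 both were highest in E15.5 replicate 2 (14.9 and 6.33 CPM). Both were thus highest in the 3 libraries high in thymus genes. *Scgb1a1*, which encodes the main secreted protein of club cells, made up most of the sum after birth. The 5 markers of alveolar type 1 cells summed to between 90.5 and 169 CPM before birth and between 1396 and 1772 CPM after it, and the 5 markers of type 2 cells to between 632 and 2166 CPM before and between 13889 and 18864 CPM after. All 5 of each list were called higher across birth, and from P5 to P8 edgeR called 0 of the 5 in either list, with 0 at an unadjusted p under 0.05. The changes of *Aldh1a3*, *Rarb* and *Crabp2* given below fall in the same interval, and the part of these cell types in any of them was not tested.

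*Aldh1a2* (ENSMUSG00000013584, chr9:71215789-71296243, plus strand), the main retinaldehyde dehydrogenase of the early embryo and, in the lung, of the mesothelium and mesenchyme, took another course. It was at 41.1, 44.6 and 41.5 CPM at E15.5 and 25.4, 19.4 and 24.5 CPM at E18.5. It was at 17.0, 12.8 and 9.37 CPM at P5 and 36.3, 38.7 and 38.8 CPM at P8. No group overlapped the next, and the P8 libraries lay just under the E15.5 libraries. The log2 fold change was -0.87 before birth (edgeR FDR = 0.00561) and -0.73 across birth (edgeR FDR = 0.00249), both short of the fold cutoff, and 1.51 from P5 to P8 (standard error 0.18, edgeR FDR = 0.000691). These 2 changes did not differ from each other past the threshold (difference 0.14, standard error 0.30, edgeR FDR = 0.729), while the change after birth exceeded that across birth by 2.25 (standard error 0.32, edgeR FDR = 9.85e-05, a test that 52.4% of all genes passed). Between E15.5 and P8 the log2 fold change was -0.09 (standard error 0.17, edgeR FDR = 0.657). Without P5 replicate 1, its highest P5 library, the change across birth reached -1.01 and passed both cutoffs. The rise after birth was 1.54 with P8 replicate 3 as the only P8 library. In that library the marker sums of thymus, skeletal muscle and cartilage were 10.8, 5.41 and 4.93 CPM. In the P5 libraries they lay between 4.40 and 6.84, 6.02 and 113, and 4.66 and 15.3 CPM in turn. The part of other tissues in the rise was not tested.

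The 6 mesothelium markers moved with *Aldh1a2* between P5 and P8. Their summed level lay between 148 and 179 CPM in the E15.5 libraries and between 114 and 141 CPM in those of E18.5. It lay between 197 and 277 CPM at P5 and between 673 and 689 CPM at P8, and none of the 6 was at 0. From P5 to P8 all 6 of 6 rose past both cutoffs, by between 1.07 (*Krt19*) and 2.06 (*Lrrn4*) on the log2 scale. The sum in P8 replicate 3 was 673 CPM, beside 682 and 689 CPM in replicates 1 and 2, while *Upk1b* and *Krt19* were lower in replicate 3 (55.3 and 126 CPM, beside 74.9 and 158 CPM or more). *Wt1*, a transcription factor that defines mesothelium, was at 11.99, 14.5 and 8.54 CPM at E15.5 and 4.27, 4.75 and 5.62 CPM at E18.5. It was at 2.60, 2.003 and 1.56 CPM at P5 and 6.61, 7.53 and 6.57 CPM at P8. As for *Aldh1a2*, its lowest group was P5, and *Wt1* was the 1 marker of the 6 for which this held. The means of *Upk3b*, *Upk1b* and *Lrrn4* were lowest at E18.5 and those of *Msln* and *Krt19* at E15.5, and all 5 had a higher mean at P5 than at E18.5, where *Aldh1a2* was lower at P5. *Msln*, which encodes the mesothelial surface protein mesothelin, had at most 5.83 CPM in every embryonic library and between 65.5 and 106 CPM at P5. Other lists rose from P5 to P8 too, with 5 of 6 thymus, 3 of 4 neural and glial, 3 of 6 airway and 1 of 3 cartilage markers tested called higher. None of the endothelium, heart, skeletal muscle or erythroid markers was called. Over the 12 libraries, *Aldh1a2* had a Pearson correlation of 0.257 with the mesothelium sum, 0.679 with the neural and glial sum and 0.599 with the cartilage sum. The part of the mesothelium or of another tissue in the rise of *Aldh1a2* was not tested.

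**Figure D2:**
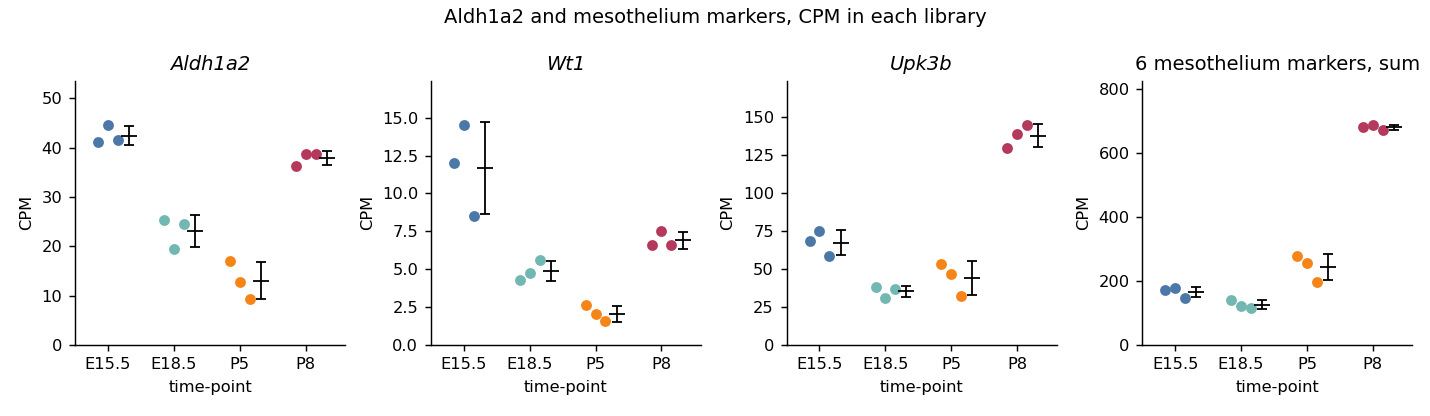
CPM of *Aldh1a2*, of the mesothelium markers *Wt1* and *Upk3b*, and the sum of the 6 mesothelium markers, in each library (points) by time-point, with mean and SD. All 4 quantities are higher at P8 than at P5 in every library, and *Wt1* is lowest at P5, where *Aldh1a2* is lowest too.

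*Aldh1a3* (ENSMUSG00000015134, chr7:66390890-66427517, minus strand), the third enzyme of the family, was low throughout. It was at 1.26, 1.101 and 0.492 CPM at E15.5 and 0.698, 0.574 and 0.696 CPM at E18.5. It was at 1.78, 1.78 and 2.12 CPM at P5 and 3.94, 4.75 and 1.97 CPM at P8, and the whole course rests on between 25 and 291 reads per library. The embryonic groups overlapped, the P5 libraries lay above all 6 embryonic ones, and P8 replicate 3 lay within the range of P5. Across birth the log2 fold change was 1.61 (standard error 0.38, edgeR FDR = 0.00205), and on the log2(CPM + 1) scale, which understates low genes, limma gave 0.80, short of the fold cutoff. The change of 0.89 from P5 to P8 missed the FDR threshold (edgeR FDR = 0.1). P8 replicates 1 and 2, the higher ones, were also those high in thymus genes. Without these libraries the change from P5 to P8 was 0.03 (edgeR FDR = 0.976), and without P8 replicate 3 it was 1.17 (edgeR FDR = 0.0215).

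Levels of different genes were compared per kilobase of exon. In CPM per kilobase, *Aldh1a2* was the highest of the 3 enzymes at E15.5, with 18.7 ± 0.843 (SD, n = 3), beside 4.99 ± 0.454 for *Aldh1a1* and 0.206 ± 0.0877 for *Aldh1a3*. At P5 the order of the first 2 was the other way round, with 25.9 ± 3.97 for *Aldh1a1* and 5.76 ± 1.68 for *Aldh1a2*, and at P8 they stood at 53.7 ± 6.98 and 16.7 ± 0.631. *Aldh1a3* remained the lowest at every time-point, with 0.770 ± 0.310 at P8. The sum over the 3 enzymes was 23.9, 15.7, 32.05 and 71.3 CPM per kilobase at the 4 time-points. Within each library, *Aldh1a1* made up 38.9, 33.1 and 36.6% of the CPM of the 3 genes at E15.5 and 52.8, 55.4 and 50.0% at E18.5. It made up 85.4, 91.1 and 91.6% at P5 and 85.6, 87.5 and 86.1% at P8. A share within a library does not depend on how the libraries were scaled. The mean share was 44.5% in the 6 embryonic libraries and 87.9% in the 6 postnatal ones (two-sided exact permutation test over libraries, p = 0.002165, also 0.002165 after adjustment over the 3 shares tested, the smallest p that 6 against 6 can give). The libraries of each side came from 2 time-points with 1 litter each, so this p takes littermates as independent samples. With shares that do not overlap between the sides, the test could give no other p. Shares of CPM give more weight to a longer gene, and *Aldh1a1* has 4937 exon bases beside 2264 for *Aldh1a2*. Per kilobase the mean share of *Aldh1a1* was 27.5% in the embryonic and 77.95% in the postnatal libraries. At E18.5 it was 34.2%, beside 64.9% for *Aldh1a2*, so *Aldh1a2* was still the higher of the 2 at that time-point.

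**Figure D3:**
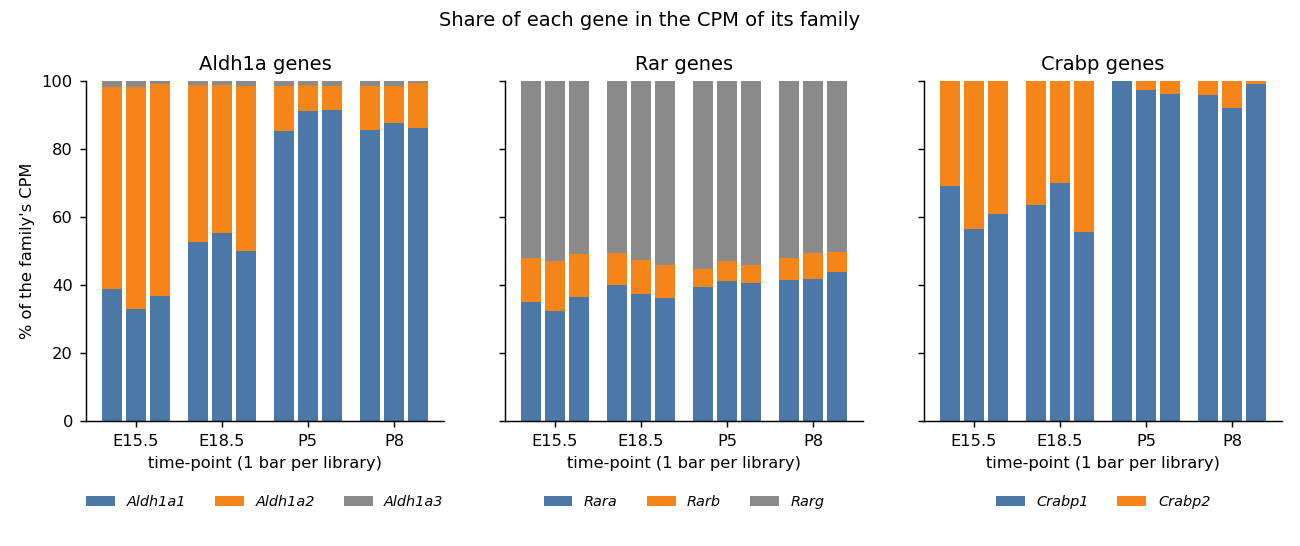
Share of each gene in the summed CPM of its family, in percent (axis from 0 to 100), not divided by exon length. There is 1 bar for each library, with the 3 libraries of a time-point side by side. *Aldh1a1* goes from 33.1 to 55.4% in the embryonic bars to 85.4 to 91.6% in the postnatal ones, the band of *Rarb* narrows, and that of *Crabp2* almost disappears after birth.

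*Stra6* (ENSMUSG00000032327, chr9:58063788-58153996, plus strand), the receptor for retinol and its carrier protein, was at 2.53, 2.42 and 2.38 CPM in the E15.5 libraries and at 1.15, 0.957 and 1.59 CPM in those of E18.5. It was at 1.03, 0.681 and 0.756 CPM at P5 and at 1.60, 1.93 and 0.986 CPM at P8. The E15.5 libraries lay above all 9 others, while E18.5, P5 and P8 overlapped. The log2 fold change before birth was -0.98 (standard error 0.30, edgeR FDR = 0.0366), just short of the fold cutoff. Over the 23 alternatives it ranged from -1.20, without E18.5 replicate 3, to -0.63. Neither the change across birth nor that from P5 to P8 passed the FDR threshold (-0.49, edgeR FDR = 0.171, and 0.84, edgeR FDR = 0.0747). Without P8 replicate 3 the second was 1.06 (edgeR FDR = 0.0229), and without the libraries high in thymus genes it was 0.23 (edgeR FDR = 0.81).

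*Crabp2* (ENSMUSG00000004885, chr3:87948666-87953376, plus strand), the carrier that delivers retinoic acid to the receptors, was at 2.94, 5.60 and 3.07 CPM at E15.5 and 1.97, 1.32 and 2.84 CPM at E18.5. At P5 it had 0, 6 and 10 reads, and at P8 12, 22 and 4 reads, so that no postnatal library was above 0.359 CPM. All 6 postnatal libraries lay below all 6 embryonic ones. The fitted log2 fold change across birth was -4.33 (standard error 0.73, edgeR FDR = 0.000165), the largest of the 9 genes in size over the 3 intervals. With so few reads at P5 this size depends on the scale: it was -1.45 on the log2(CPM + 1) scale and ranged down to -5.04 over the alternatives run, with the direction and the call kept in all 23. Changes before birth (-0.91, edgeR FDR = 0.262) and from P5 to P8 (1.21, edgeR FDR = 0.31) were not past the threshold, and the latter was -0.52 without the libraries high in thymus genes.

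*Crabp1* (ENSMUSG00000032291, chr9:54764748-54773110, plus strand), the carrier linked to the breakdown of retinoic acid, was at 6.54, 7.27 and 4.78 CPM at E15.5 and 3.43, 3.08 and 3.55 CPM at E18.5. It was at 5.43, 4.56 and 4.18 CPM at P5 and 5.81, 4.13 and 6.48 CPM at P8. The E18.5 libraries were the lowest of the 12, and the other groups overlapped. Its log2 fold changes of -0.88 before birth (edgeR FDR = 0.0132) and 0.58 across birth (edgeR FDR = 0.0252) were short of the fold cutoff. Over the 23 alternatives the first ranged from -1.03, without E15.5 replicate 3, to -0.52. Both missed the FDR threshold in at least 1 alternative. The changes before and across birth differed from each other by 1.46 (standard error 0.37, edgeR FDR = 0.0067). *Crabp1* went from a mean of 62.6% of the CPM of the 2 carriers in the embryonic libraries, where it ranged from 55.6 to 70.0%, to 96.8% in the postnatal ones, where it ranged from 92.0 to 100% (two-sided exact permutation test, p = 0.002165, adjusted 0.002165). The limits given for the test of the *Aldh1a1* share hold here too. Per kilobase, the 2 carriers together stood at 10.7, 5.73, 5.96 and 6.99 CPM at the 4 time-points.

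*Rarb* (ENSMUSG00000017491, chr14:16430839-16819156, minus strand), whose promoter holds the element printed above, was at 20.1, 23.0 and 20.6 CPM at E15.5 and 19.8, 17.3 and 18.48 CPM at E18.5. It was at 7.15, 8.07 and 7.22 CPM at P5 and 9.97, 12.3 and 9.60 CPM at P8. No group overlapped the next, and all 6 postnatal libraries lay below all 6 embryonic ones. The log2 fold change across birth was -1.22 (standard error 0.11, edgeR FDR = 6.94e-07), and it lay between -1.30 and -1.17 over the 23 alternatives. From P5 to P8 its log2 fold change was 0.49 (edgeR FDR = 0.0119), short of the fold cutoff and not past the FDR threshold without the libraries high in thymus genes (0.34, edgeR FDR = 0.186). The change before birth was -0.19 (edgeR FDR = 0.221), and it differed from that across birth by -1.03 (standard error 0.18, edgeR FDR = 0.000627).

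The exons of *Rarb* share 1793 of their 5265 bases with *Top2b* on the other strand and 227 with *Gm48162*. Whether the counting used strand is not given in the sources used here, so reads in these bases may not be told apart and the level of *Rarb* is uncertain. *Top2b*, which encodes a DNA topoisomerase, ranged from 277 to 307 CPM in the embryonic libraries and from 194 to 227 CPM in the postnatal ones, with a log2 fold change of -0.32 across birth (standard error 0.05, edgeR FDR = 0.00021) and -0.10 from P5 to P8 (edgeR FDR = 0.222). No other of the 9 genes shared exon bases with another gene.

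*Rara* (ENSMUSG00000037992, chr11:98927818-98974942, plus strand), the receptor found in most tissues, was at 55.5, 51.1 and 60.6 CPM at E15.5 and 85.3, 65.5 and 69.0 CPM at E18.5. It was at 53.2, 56.8 and 52.8 CPM at P5 and 65.4, 66.3 and 72.9 CPM at P8. It was highest at E18.5 in the mean, the E18.5 and P8 libraries overlapped, and so did those of E15.5 and P5. Its log2 fold changes were 0.40, -0.35 and 0.31 in the 3 intervals (edgeR FDR = 0.0153, 0.00748 and 0.0493), none past the fold cutoff.

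*Rarg* (ENSMUSG00000001288, chr15:102234938-102257517, minus strand), the receptor known from skin and cartilage, was at 82.3, 83.3 and 84.5 CPM at E15.5 and 108, 92.6 and 104 CPM at E18.5. It was at 74.8, 73.3 and 70.4 CPM at P5 and 81.9, 80.4 and 83.5 CPM at P8. The E18.5 libraries were the highest of the 12, and E15.5 and P8 overlapped. Its log2 fold changes were 0.29, -0.39 and 0.15 (edgeR FDR = 0.0107, 0.00019 and 0.13). For both receptors the change across birth differed from that before birth, by -0.75 for *Rara* (edgeR FDR = 0.00334) and by -0.68 for *Rarg* (edgeR FDR = 0.000434), and from that after birth, by 0.66 (edgeR FDR = 0.00727) and 0.54 (edgeR FDR = 0.00197).

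*Rarg* was the highest of the 9 genes per kilobase at E15.5 and E18.5, with 19.6 ± 0.254 and 23.8 ± 1.85 CPM per kilobase (SD, n = 3), and the second after *Aldh1a1* at P5 and P8, with 17.1 ± 0.526 and 19.2 ± 0.368. *Aldh1a2* at E15.5 stood next to it, 18.7 ± 0.843, within the spread of the 2 genes. At P8 *Rara*, 15.6 ± 0.940, and *Aldh1a2*, 16.7 ± 0.631, also did not differ beyond their spread, and *Crabp1* followed with 6.82 ± 1.51. At P5 *Crabp1*, 5.89 ± 0.799, and *Aldh1a2*, 5.76 ± 1.68, overlapped. *Rarb* had between 3.52 and 4.03 CPM per kilobase at the embryonic and between 1.42 and 2.02 at the postnatal time-points, and *Stra6*, *Aldh1a3* and, after birth, *Crabp2* were the lowest of the 9, all under 1. The 3 receptors together stood at 36.4, 44.1, 30.9 and 36.9 CPM per kilobase. *Rarb* made up 12.8, 14.6 and 12.4% of the CPM of the receptors at E15.5 and 9.28, 9.89 and 9.67% at E18.5. At P5 this share was 5.29, 5.84 and 5.53%, and at P8 it was 6.35, 7.74 and 5.78%. It averaged 11.4% in the embryonic and 6.09% in the postnatal libraries (two-sided exact permutation test, p = 0.002165, adjusted 0.002165, with the same limits as for the *Aldh1a1* share).

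**Figure D4:**
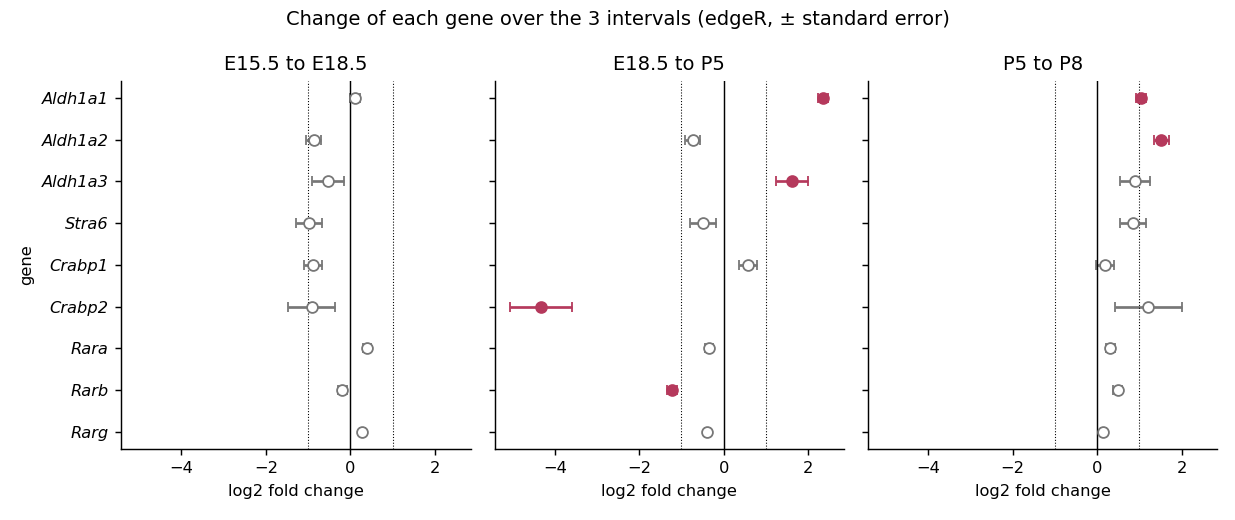
Log2 fold change of each of the 9 genes (rows) in each of the 3 intervals, with its edgeR standard error as a bar. Filled points are past both cutoffs, open points are not, and dotted lines mark a log2 fold change of -1 and 1. *Aldh1a1*, *Aldh1a3*, *Rarb* and *Crabp2* are filled from E18.5 to P5, and *Aldh1a1* and *Aldh1a2* from P5 to P8.

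Over the whole course from E15.5 to P8, 3 of the 9 genes were past both cutoffs, *Aldh1a1* (log2 fold change 3.50, edgeR FDR = 3.14e-10), *Aldh1a3* (1.98, edgeR FDR = 0.00034) and *Crabp2* (-4.03, edgeR FDR = 0.000117), and 32.3% of all genes were, 20.9% higher and 11.5% lower. By the FDR alone 5 of the 9 passed, and 76.3% of all genes did. *Rarb*, at -0.92 (edgeR FDR = 5.73e-06), came near the fold cutoff, which it passed without P8 replicate 2 (-1.02) or without the libraries high in thymus genes (-1.004). *Stra6* went from -0.62 (edgeR FDR = 0.0727) to -1.23 without those libraries, with P8 replicate 3 as the only P8 library. *Aldh1a2*, *Rarg* and *Crabp1* were not past the FDR threshold over this span (edgeR FDR = 0.657, 0.498 and 0.672). The groups did not overlap in CPM for 7 of the 9 genes before birth, 8 across birth, 5 from P5 to P8 and 7 over the whole course, and for 38.1, 77.1, 37 and 77.1% of all genes.

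For each gene past both cutoffs in a comparison, the 3 genes whose log2(CPM + 1) followed it most closely over the 12 libraries were looked up among the 10615 genes with a mean of at least 10 CPM. The Pearson correlations are descriptions over 12 libraries that share 4 litters. *Aldh1a1* was closest to *Stim1* (r = 0.997), *Gabrp* (0.996) and *Scel* (0.995). *Gabrp* went from means of 0.191 (E15.5) and 0.292 CPM (E18.5) to 17.6 and 43.1 CPM at P5 and P8. *Aldh1a2* was closest to *Sfrp2* (0.967), an inhibitor of Wnt ligands, with means of 60.6, 35.0, 15.2 and 49.8 CPM at the 4 time-points, to *Rspo1* (0.958), which enhances Wnt signals, with 17.4, 12.7, 7.04 and 17.0 CPM, and to *Ipo13* (0.944). *Aldh1a3* was closest to *Acaa2* (0.983), *Chchd10* (0.976) and *Aifm2* (0.975). *Crabp2* was closest to *Utp11* (0.995), *Col26a1* (0.991) and *Snapc2* (0.986), and *Rarb* to *Ruvbl2* (0.994), *Eno1* (0.994) and *Gm4735* (0.993). *Eno1* has near-identical copies in the genome. The paper used uniquely mapped reads, so reads that match several copies may be missing from its count.

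Other genes of retinoid biology were taken as a list of 63, of which 49 were in the count table and 48 were tested. The 14 that were not in it had at most 1.07 CPM in any library. Among them were *Cyp26a1*, whose element is printed above, with at most 0.392 CPM, and *Stra8* and *Hoxb1*, known targets of retinoic acid. Past both cutoffs were 4 of the 48 before birth, 8 across birth, 3 from P5 to P8 and 16 from E15.5 to P8, where the background given above for all genes is 3.04, 26.8, 2.96 and 32.3%. The 4 before birth were *Lrat*, *Ttr*, *Rxrg* and *Cyp26b1*. *Ttr* and *Rxrg* lost the call without E15.5 replicate 1 or 2 and without E18.5 replicate 1 or 2, which left 2. Without the libraries high in heart genes *Lrat* lost it too (edgeR FDR = 0.0699), which left 1. The median log2 fold changes of the 48 genes, -0.13, -0.11, 0.05 and 0.13, lay near the -0.01, -0.00, -0.00 and -0.02 of all genes.

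Of the genes for uptake and storage of retinol, *Lrat*, which makes the retinyl esters that cells store, rose from 1.40, 0.865 and 1.12 CPM at E15.5 to 3.06, 2.07 and 2.98 CPM at E18.5 (log2 fold change 1.26). *Lpl*, the lipase that frees dietary lipids and retinyl esters from lipoproteins, was between 30.7 and 32.5 CPM before birth at E18.5 and reached 108 to 139 CPM at P5 (2.07, edgeR FDR = 1.08e-06). *Ttr*, the partner of the retinol carrier in blood, had 28 reads in the E15.5 libraries and none in those of E18.5. After birth it had 7 reads at P5 and 514 at P8. The E18.5 level was at least 3.04-fold lower than that of E15.5 against a floor of 3 reads per library. Of the 7 genes of the group tested, 5 rose past both cutoffs from E15.5 to P8, *Rbp4*, that carrier, *Rbp7*, *Ttr*, *Lrat* and *Lpl*, beside 20.9% of all genes. All 5, and *Dgat1*, were highest in P8 replicate 2, the library highest in thymus genes. *Rbp4* lost the call without the libraries high in thymus genes (0.71), and *Rbp7* lost it without E15.5 replicate 1 or 2 (edgeR FDR = 0.083 and 0.085) and without those high in heart genes (edgeR FDR = 0.275).

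Of the 12 oxidoreductases tested, 3 rose past both cutoffs across birth and none fell, where 17.5% of all genes rose. *Dhrs3*, which turns retinaldehyde back to retinol, was at 24.5, 16.5 and 16.6 CPM in the E18.5 libraries and at 51.8, 55.9 and 54.0 CPM in the P5 ones (log2 fold change 1.57, edgeR FDR = 2.89e-06). *Adh7* rose by 1.66 (edgeR FDR = 0.0109), and by 1.18 without P5 replicate 2, where it was not called (edgeR FDR = 0.0606). *Dhrs9* had 4 reads in the 3 libraries of E18.5 and 145 in those of P5. *Rdh10*, the main enzyme that makes retinaldehyde in the embryo, was higher at P5 by 0.79 (edgeR FDR = 3.94e-07), short of the fold cutoff. *Cyp26b1*, an enzyme that breaks retinoic acid down, was the 1 gene of its kind tested, and it went from 10.5, 10.7 and 13.4 CPM at E15.5 to 39.0, 23.1 and 29.1 CPM at E18.5. Its groups did not overlap, its log2 fold change was 1.41, and the call held in all 23 alternatives.

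Among the 5 receptor partners and carriers tested, *Fabp5*, a fatty acid binding protein that also carries retinoic acid, rose by 1.23 across birth (edgeR FDR = 3.05e-05). *Rxrg* rose by 2.95 across birth (edgeR FDR = 0.000701), at no more than 5.21 CPM in any library. Before birth its log2 fold change was -1.95 (edgeR FDR = 0.0369), a call lost in 8 of 23 alternatives, with an FDR of up to 0.295 without the libraries high in heart genes. *Rxra* and *Rxrb*, the RXR genes with higher levels, were lower at P5, with log2 fold changes of -0.25 and -0.43 (edgeR FDR = 0.00217 and 2.81e-05). Of the 10 corepressors and coactivators, *Zfp423*, a zinc finger factor that RAR signalling requires, was called across birth (-1.003), on the edge of the cutoff. Of the 13 response genes tested, *Rarres2*, which encodes chemerin, rose across birth from between 5.40 and 6.74 CPM to between 38.1 and 40.3 CPM (2.77, edgeR FDR = 1.1e-08). From E15.5 to P8 *Hoxb4*, *Hoxb5*, *Meis2* and *Rarres1* were lower past both cutoffs, 4 of 13 beside 11.5% of all genes, and *Rarres2* was the 1 response gene that was higher. Without the libraries high in thymus genes *Hoxb4* and *Meis2* were short of the fold cutoff (-0.87 and -0.96). *Hoxb4* was also short of it without P8 replicate 1 or 2 (-0.97 and -0.99), and *Meis2* without P8 replicate 2 (-0.99). *Rarres1* was not past both cutoffs without those high in heart genes (-0.56, edgeR FDR = 0.299), without E15.5 replicate 2 (-0.95) or without P8 replicate 3 (-0.91).

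The 3 calls from P5 to P8 were *Ttr*, *Dhrs9* and *Adh7*. At P8 *Ttr* had 42, 361 and 111 reads in replicates 1, 2 and 3, and *Dhrs9* had 219, 383 and 53. Without P8 replicate 1, without P8 replicate 2, or without the libraries high in thymus genes, *Ttr* and *Dhrs9* no longer passed the filter on low counts and were not tested. *Adh7* was tested in all 3 and was not called (edgeR FDR = 0.072, 0.124 and 0.441). Thus 0 of the 45 genes tested were called by edgeR there, with 11, 10 and 6 at an unadjusted p under 0.05. Without P5 replicate 1 or 3 *Ttr* alone was called. In the same 3 alternatives 12, 10 and 9 genes were called from E15.5 to P8. Of the 16 called with all libraries, *Ttr*, *Dhrs9* and *Rbp7* were not tested in any of the 3, and *Cyp26b1* (0.97) and *Rxrg* (0.85, edgeR FDR = 0.234) also lost their calls without the libraries high in thymus genes. *Cyp26b1* was at 0.97 without P8 replicate 1 and at 0.86 without the libraries high in heart genes. The part of other tissues in these changes was not tested.

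**Figure D5:**
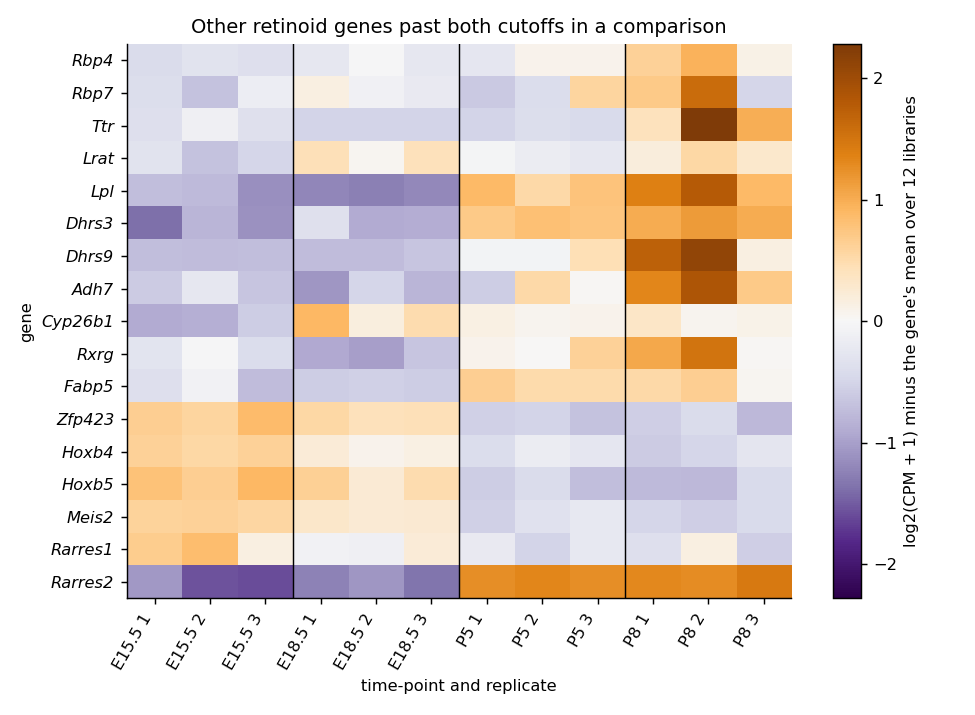
Levels of the 17 other retinoid genes past both cutoffs in at least 1 of the 4 comparisons, as log2(CPM + 1) minus the mean of the gene over the 12 libraries (colour, orange higher, purple lower), with 1 column for each library. *Dhrs9*, *Rxrg* and *Rbp7* are highest in P8 replicates 1 and 2, while *Rarres2*, *Zfp423*, *Hoxb4*, *Hoxb5* and *Meis2* separate the 6 embryonic from the 6 postnatal columns.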

How the data were processed

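The authors sequenced RNA of whole lungs, aligned the reads to mm10 with TopHat2 2.1.1 and Bowtie2 2.3.4 and counted them on Gencode vM14 genes with HTSeq 0.10.0. They deposited raw counts of 16152 genes and CPM values of 51825 genes, per mapped read. Whole reads were recovered from the CPM steps: 100% of the CPM values were whole within 0.1 read and equalled the counts, and mapped reads lay between 48436716 and 62279460 per library. A deposited table of percent spliced in was not used.

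Counts were tested with edgeR 4.0.16 (R 4.3.3), quasi-likelihood, TMM, fitting the 12 libraries together on the 15994 genes that reached 1 CPM in 3 or more. On simulated counts for E18.5 to P5 with 200 of 15994 genes changed by 1.5 on the log2 scale, 177 were called, with 5 unchanged genes. In the data 26.8% of genes were past both cutoffs in that interval, 17.5% higher and 9.34% lower. The simulation had far fewer changes, as many up as down, so it does not give error rates for so broad a change. Alternatives used DESeq2 1.42.0, limma 3.58.1 with pseudocounts of 1 or 0.1, other scaling, filters and samples. Symbols were found for 16136 of the 16152 genes. Exon lengths and positions come from GENCODE M21 (GRCm38). Named genes were the 9 members, the called genes of the list of 63, and the 3 closest in course to each called member. The members and lists were chosen with earlier results of these data known, and *Rdh10*, *Rxra*, *Rxrb*, *Dgat1*, *Top2b* and the cell type markers were named after their values were seen. Libraries of a time-point differed by more than sampling noise (mean chi-square per gene at least 12.9).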

Additional observations from a re-analysis of the deposited data

How the results depend on the processing

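Of 828 recomputed member log2 fold changes (36 over 23 alternatives each), 806 kept direction and side of the cutoffs. The reversed ones had not been called: *Aldh1a3* before birth (0.41 without the heart-rich libraries), *Crabp2* from P5 to P8 (-0.52 without the thymus-rich ones), and from E15.5 to P8 *Rarg* (-0.019 with library size only, -0.025 in both limma fits) and *Crabp1* (0.28 and 0.26 without thymus-rich or heart-rich libraries, and -0.25 to 0.084 with single libraries left out, above 0 without E15.5 replicate 2 or P8 replicate 2). The 2 sets without tissue-rich libraries were chosen after seeing the data. The difference of *Aldh1a2* across and before birth ranged from -0.16 (P5 replicate 1 left out) to 0.33, and was -0.09 with E18.5 replicate 2 left out. The causes were not tested.

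By the FDR alone, 5, 8, 4 and 5 members passed in the 4 comparisons in turn, and 21, 28, 9 and 37 of the other retinoid genes. Without the thymus-rich libraries, 1 member was called from P5 to P8 and 5 from E15.5 to P8, and 2, 0 and 9 of the 45 other genes still tested before birth, from P5 to P8 and from E15.5 to P8. Before birth 1 other gene was called by limma with a pseudocount of 1 and 1 without the heart-rich libraries, and 5 from P5 to P8 on reads recovered from CPM, which adds genes outside the count table. With each library left out, called members ranged from 0 to 1, 4 to 5, 1 to 4 and 3 to 4, other genes from 2 to 4, 6 to 10, 0 to 3 and 10 to 17, and members whose change differed between intervals from 5 to 7 and from 6 to 7. Over all genes, calls before birth were 487, against 150 with limma and a pseudocount of 1, 737 on recovered reads and 179 without the heart-rich libraries. From P5 to P8 they were 474, against 286, 769 and, without the thymus-rich libraries, 90. With single libraries left out they ranged from 284 to 572 and from 198 to 682. By the FDR alone 3441, 11369, 2872 and 12197 genes passed.

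With E18.5 against P5 alone the shares differed by 36.6 (*Aldh1a1*), -4.06 (*Rarb*) and 34.8 points (*Crabp1*), each at p = 0.1, the smallest that 3 against 3 can give in an exact permutation test. The leave-one-out ranges were 41.1 to 45.6, -5.78 to -4.72 and 32.8 to 35.7 points. The replicate numbers did not pair the samples (correlation of deviations from -0.227 to 0.309 over 18 pairs, 5 over 0.1). The replicate block left 0, 4, 2 and 3 members called, and 456, 4308, 414 and 5171 of all genes. Depth limits *Crabp2*, *Aldh1a3* and *Stra6*, with as few as 0, 25 and 33 reads in a library.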
